A study of Mus musculus with 12 samples.

Results

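The cytosolic ribosomal protein genes described here are 89 of the 35275 genes in the deposited count table. They are the protein-coding rows whose name is Rpl or Rps followed by a number, or Rpsa, Rplp0, Rplp1 or Rplp2, without the Rps6 kinases, and with a mean of at least 1 CPM (reads of a gene scaled to a common library total) over the 12 libraries. The name rule alone took 106 genes, and 17 of them lay under the minimum. Of the 89 members, 76 are the canonical genes of the ribosome, 45 for the large and 31 for the small subunit. The other 13 are 5 paralogs (Rpl22l1, Rpl36al, Rpl7l1, Rps27l and Rps4l), 6 protein-coding rows with pseudogene names, the retrocopy Rps27rt, and Rps19bp1. Rps19bp1 encodes a protein that binds RPS19 and is not itself a ribosomal protein, although the name rule takes it. The members just inside the minimum were Rpl10-ps3 at 1.26 and Rpl27-ps3 at 1.36 mean CPM, and just outside lay Rps10-ps1 at 0.850 and Rps18-ps3 at 0.775. One canonical gene, Rpl24, also fell outside at a mean of 0.264 CPM.

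The libraries are bulk RNA of the ileum, the last stretch of the small intestine, from C57BL/6 mouse pups on postnatal day 14. In the stressed groups the pregnant dam was restrained inside a ventilated tube, 2 h daily, over gestational days 7 to 19, and the control dams stayed undisturbed in their home cages. Each of 3 stressed and 3 control dams gave 1 male and 1 female pup, which makes 4 groups of 3 libraries, and "stressed" always refers to the dam. The design asks whether stress of the pregnant dam alters gene expression in the ileum of sons and daughters. In bulk tissue, fewer cells of a type and less RNA per cell cannot be told apart.

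Ribosomal proteins assemble on ribosomal RNA in the nucleolus into a large and a small subunit, and nearly every one is needed in a single copy per ribosome. Their mRNAs are short and very abundant, and many begin with a C followed by a run of pyrimidines, the 5' terminal oligopyrimidine (TOP) motif, through which mTOR signalling and LARP1 control their translation. The intestinal epithelium renews itself throughout life, and ribosome production in the crypts supports that growth. Mammalian genomes also hold many processed pseudogenes of these genes, so that short reads from a ribosomal protein mRNA can match more than 1 place.

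The sequences around the start of transcription are shown first because they carry 2 properties that bear on the counts and on the family: the pyrimidine run found at some of the starts, and the near identity of Rps27 and its retrocopy. RefSeq promoter windows of build GRCm38.p6, 250 bases before to 50 bases after the start, were found for 62 of the 89 members, among them 56 canonical genes with 66 starts. Each line gives the 20 bases before and the 20 bases from the annotated start, 5' to 3' on the strand of the gene. Capitals mark the longest run of C and T, at least 5 long and opening with C, that begins between base -10 and base 6. Rps27 lies at chr3:90213629-90213668 (minus strand), Rps27rt at chr9:114982720-114982759 (minus), Rpl38 at chr11:114668560-114668599 (plus), Rps6 at chr4:86857348-86857387 (minus), Rpl15 at chr14:18270967-18271006 (minus) and Rplp2 at chr7:141447631-141447670 (plus). Rpl37a at chr1:72711240-72711279 (plus) and Rplp0 at chr5:115559447-115559486 (plus) are shown as annotated starts without such a run.
Rps27: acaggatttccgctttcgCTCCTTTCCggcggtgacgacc
Rps27rt: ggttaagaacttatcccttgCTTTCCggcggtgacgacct
Rpl38: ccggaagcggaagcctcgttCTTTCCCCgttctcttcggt
Rps6: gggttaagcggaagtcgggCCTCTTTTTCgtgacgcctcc
Rpl15: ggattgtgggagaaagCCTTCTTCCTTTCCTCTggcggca
Rplp2: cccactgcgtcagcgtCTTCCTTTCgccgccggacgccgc
Rpl37a: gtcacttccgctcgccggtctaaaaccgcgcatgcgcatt
Rplp0: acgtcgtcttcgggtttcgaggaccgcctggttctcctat

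A C at base 1 followed by at least 4 pyrimidines was found at 13 of the 66 canonical starts (19.7%), against 2.51% of all 32851 RefSeq starts of the same window length. A run beginning near the start, as marked above, stood at 29 of 66 (43.9%), against 23.5% of all starts. The motif CCGGAAG, searched on both strands of the whole 300-base window, was present at 25 canonical starts (37.9%, against 8.86% of all starts). ATGGCGGC was present at 5 (7.58%, against 2.24%) and TATAAA at 6 (9.09%, against 13.6%), both searched in the same way. On the other strand CCGGAAG reads as 5 pyrimidines and a pair of G, so a match there can overlap a run near the start. A run that is missing at an annotated start, as in Rpl37a and Rplp0, says only that these letters are not at that position. The windows of Rps27 and Rps27rt share an identical stretch of 38 bases, which opens at base 2 of Rps27 and at base 1 of Rps27rt.

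Ribosomal protein mRNAs were among the most abundant in the ileum. By FPKM, which divides counts by gene length, 39 canonical members stood among the 100 genes with the highest mean and 63 among the highest 200. Rps27, a small-subunit protein with a zinc finger, had the highest mean at 2192 FPKM ± 1086 (SD, n = 12 libraries). It was followed by Rps14, a protein of the decoding face of the small subunit, at 1816 ± 237, and by Rplp1, an acidic protein of the ribosomal stalk, at 1524 ± 334. Rps26, at 1230 ± 237, was also among the 5 highest, and neighbours in this order differed by less than their spread over libraries. By mean CPM, which is not divided by gene length, Rps27 had 559, against 1241 in Rps14 and 1755 in Rpl13a, the highest member. Among canonical members the median was 522 FPKM in the large and 655 in the small subunit.

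The lowest canonical members were Rpl35 at 40.0 ± 5.23 and Rpl23a at 44.4 ± 6.35 FPKM, far under most others although every ribosome holds both proteins. Rpl23a has a near-identical copy among the members, and the sources used here do not state how reads that match several places were counted. FPKM also follows the length used: Rps15a, at 84.3 FPKM, was given 5130 bases in the deposited table, whereas its GENCODE M21 transcript chosen here has 640 bases. Rps27 was given a shorter length than its chosen transcript, and Rps14 a longer one. The first place of Rps27 by FPKM thus depends on the deposited lengths. Transcripts were chosen by protein-coding type, then by the annotated principal tag (APPRIS), and only then by the longest coding sequence. At the bottom stood the 6 rows with pseudogene names, from Rps12-ps3 at 12.3 down to Rpl10-ps3 at 1.70 FPKM.

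**Figure D1:**
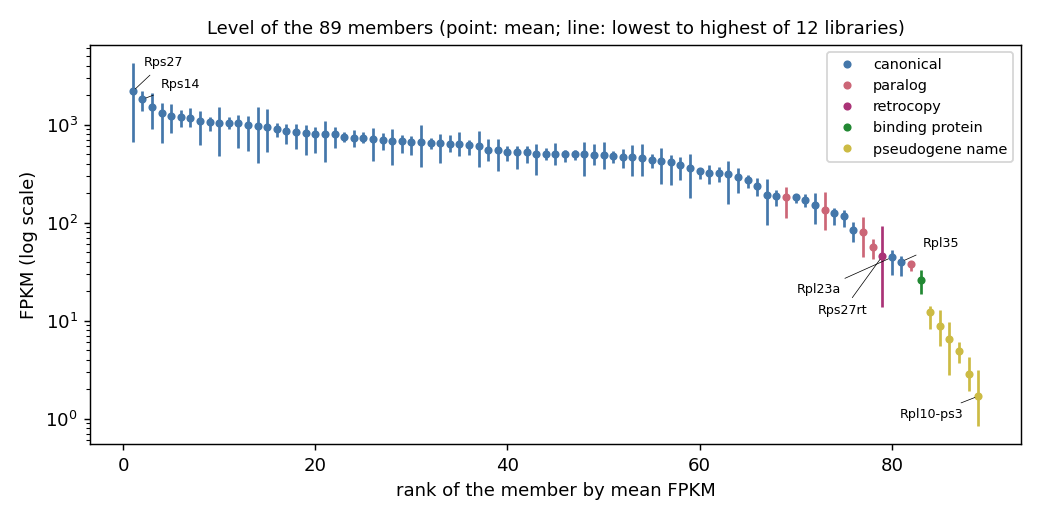
Mean FPKM of each of the 89 members (points, log scale) by rank, with a line from the lowest to the highest of the 12 libraries and colours for the kind of gene. The canonical genes run from 2192 FPKM in Rps27 to 40.0 in Rpl35, and the rows with pseudogene names lie lowest, down to 1.70.

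The members together took between 3.42% and 5.30% of the counted reads of a library. The share was 4.11, 4.89 and 3.91% for control males 1, 2 and 3, and it was 4.29, 4.93 and 3.42% for their stressed counterparts. In females it was 4.90, 4.49 and 4.20% in controls and 5.30, 4.73 and 5.16% in the stressed group. The male groups overlapped widely, with means of 4.31% ± 0.518 (SD, n = 3) in controls and 4.21% ± 0.756 among stressed males. The female means were 4.53% ± 0.350 in controls and 5.07% ± 0.296 among stressed females, and these ranges overlapped as well. Without mitochondrially encoded genes and Yam1 in the total, the mean was 4.70% ± 0.370 among control females and 5.27% ± 0.308 among stressed females. Counts summed over the 45 canonical genes of the large subunit were set against those over the 31 of the small subunit. Their ratio ran from 1.36 in stressed female 1 to 1.48 in stressed male 1.

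**Figure D2:**
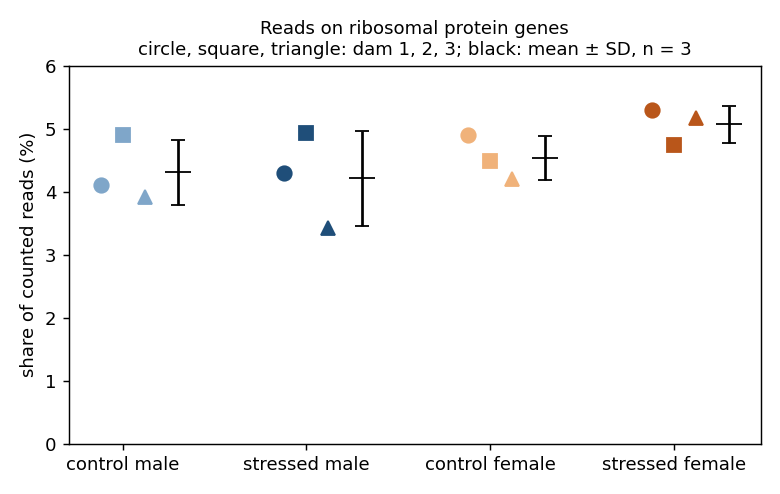
Share of counted reads on the 89 members in each of the 12 libraries (circle, square and triangle for dams 1, 2 and 3), with mean ± SD of each group of 3 in black. Stressed male 3 is lowest at 3.42% and stressed female 1 highest at 5.30%.

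The libraries also differed in several other features. Totals ran from 16423523 to 22975526 counts, and the 6 male libraries had the 6 smallest totals. Xist and the Y-linked Uty and Kdm5d matched the labelled sex in all 12 libraries. Reads on Yam1, a noncoding transcript, made up 1.00% of control male 1, 1.39% of stressed male 1 and 4.13% of stressed male 3, and less in the other 9 libraries, down to 0.171%. Mitochondrially encoded genes made up 1.16% of stressed male 3 and 2.18% of stressed male 1, against 3.01 to 4.59% elsewhere. Fabp1, an enterocyte gene of the proximal small intestine, was at 1404 CPM in control male 3 and 168 in its littermate, and under 1 CPM in the other 10 libraries. The ileal list (Fabp6 and Slc10a2, genes of bile acid uptake) summed to between 0.911 and 614 CPM, and the 5 epithelial markers to between 3860 and 6662 CPM, with no gene of either list at 0 throughout a group. In control male 3 the median log2 deviation was -4.81 for the ileal list and 5.91 for 3 proximal genes (Fabp1, Gata4 and Lct). Its littermate had -0.29 and 4.52. Cycling crypt markers (10 genes) summed to 437 to 1478 CPM among control males and 1002 to 1071 among stressed males, 914 to 1226 among control females and 853 to 989 among stressed females. Control male 1, the lowest for these crypt markers, also stood apart in other lists, with a median log2 deviation of 0.78 for smooth muscle and 0.71 for enteric neurons. Its deviation was -0.55 for epithelium, -1.62 for goblet cells, -2.01 for Paneth cells and -1.82 for macrophages. Without control male 1 the median fold change of the members for stress in males was -0.10 on the log2 scale, against -0.07 with it. Without control male 3 that median was -0.096, with 30 members above 0 and 59 below. The part of these features in the results below was not otherwise tested.

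The members did not move as 1 block. Over the 76 canonical genes, the median deviation of log2 CPM from each gene's mean over all libraries was lowest in stressed male 3 at -0.34 and in control male 1 at -0.14. It was highest in stressed female 3 at 0.18 and stressed female 1 at 0.16. In stressed male 3 only 5 of 76 genes lay above their own mean, whereas in stressed female 3 all 76 did. Pairs of canonical genes had a median Pearson r of 0.59 over the 12 libraries (2850 pairs, a description, since all pairs share library depth and scaling), but 522 pairs had an r below 0. Rpl3, which shapes the peptidyl transferase centre, had a median r of -0.51 with the others, and Rpsa, the small-subunit protein also known as the laminin receptor, -0.42.

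**Figure D3:**
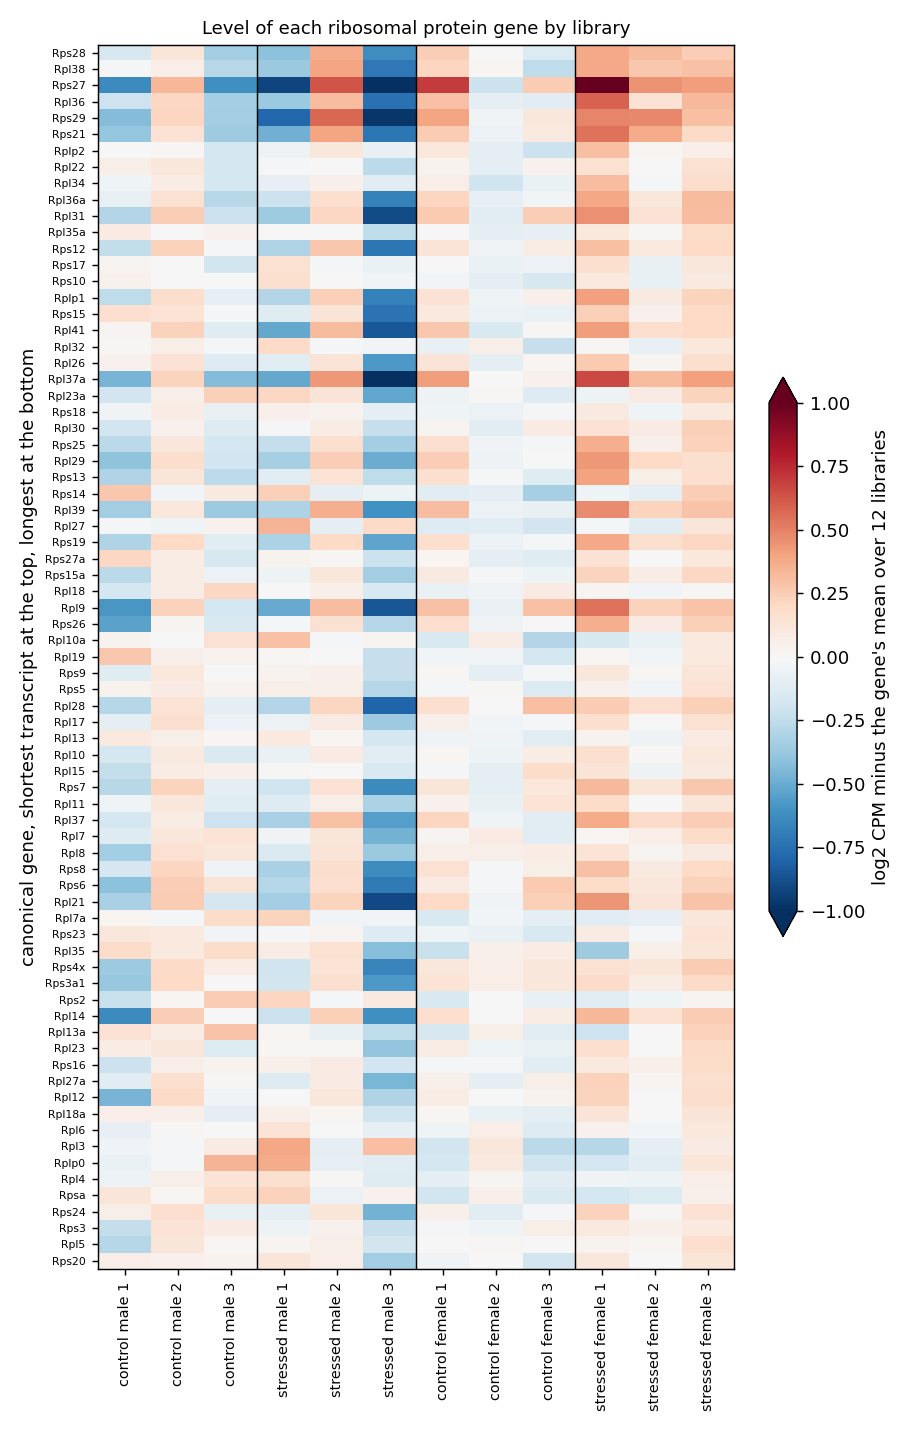
Log2 CPM of canonical genes (rows, shortest GENCODE transcript at the top) in 12 libraries (columns), as the difference from the gene's mean over the libraries; blue is lower and red higher. Stressed male 3 is lower in most rows, and Rps27, Rps29 and Rpl37a near the top have the deepest colours.

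The widest swings belonged to members with short transcripts. Rps27 had 315, 616 and 319.8 CPM among control males 1, 2 and 3 and 259.5, 756 and 176 CPM among stressed males. In females its values were 796, 422 and 584 CPM in controls and 1036, 669 and 655 CPM in the stressed group. The highest library thus exceeded the lowest 5.88-fold, and both male groups held 1 high library, that of dam 2, and 2 low ones. Rps29, another small zinc-finger protein of the small subunit, had 337, 526 and 358 CPM among control males, 264, 677 and 232 among stressed males, 597, 445 and 492 among control females and 638, 634 and 561 among stressed females. Its order over the male libraries was much like that of Rps27, with dam 2 highest in both groups. Rpl37a, a zinc-finger protein of the large subunit, repeated this with 385, 621 and 395 CPM among control males, 374, 721 and 248 among stressed males, 711, 534 and 548 among control females and 842, 663 and 709 among stressed females.

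Rpl3 ran otherwise, with 894, 908 and 970.2 CPM among control males and 1200.1, 858 and 1130.4 among stressed males. Its female values were 806, 989.8 and 760.1 CPM in controls and 753, 858 and 970.5 in the stressed group. Stressed males 1 and 3, lowest for Rps27, were thus highest for Rpl3. Rplp0, the base of the stalk, had 1492, 1546 and 1975 CPM among control males, 2023, 1479.8 and 1455 among stressed males, 1385, 1674 and 1360.5 among control females and 1385, 1455 and 1703 among stressed females, and all 4 groups overlapped.

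Across the 76 canonical genes, a gene's deviation in a library was related to transcript length in different directions, with Spearman's rho from -0.52 in stressed female 1 to 0.59 in control male 3. Over all genes tested, rho with gene length ran from -0.48 in stressed female 1 to 0.50 in stressed male 3. In control male 3 it was 0.06 over all genes, and in stressed male 3 it was 0.31 over the canonical genes. A relation to length was thus not particular to the members. This is a description over genes that share a library, and the median canonical transcript has 740 bases, the range being 271 to 3706. In the deposited table the median length of the canonical members was 932.5 bases, against 3028 for all genes tested, and only 7.10% of tested genes were shorter than that. When the canonical genes were split at the median transcript length, a split made after seeing the data, the 38 shorter ones had medians of -0.51 in stressed male 3 and 0.31 in stressed female 1. The 38 longer ones had -0.29 and 0.12 in the same libraries. After subtracting the median of the 76 canonical members in each library, the largest spread of log2 CPM (SD over 12 libraries) was in Rpl10-ps3 at 0.73, Rps27rt at 0.66, Rps27 at 0.64, Rpl27-ps3 at 0.43 and Rps29 at 0.40. The smallest was in Rpl17 at 0.027, Rps15a at 0.050 and Rps9 at 0.058. Before that subtraction Rps18 was the steadiest canonical gene, from 538 CPM in stressed male 3 to 612 in stressed female 3, a ratio of 1.14 between the highest and the lowest library.

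**Figure D4:**
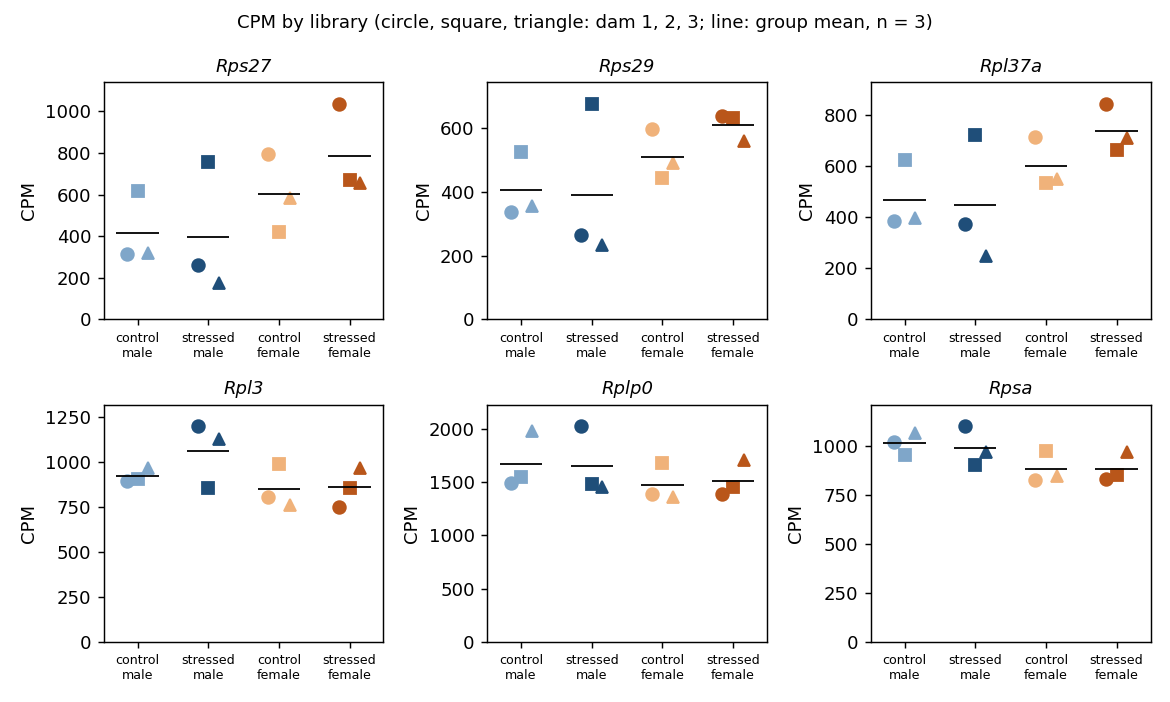
CPM of Rps27, Rps29, Rpl37a, Rpl3, Rplp0 and Rpsa in each library (circle, square and triangle for dams 1, 2 and 3; line for the group mean of 3), each axis starting at 0. In the upper row both male groups split into 1 high and 2 low libraries (Rps27 at 756 against 176 and 259.5 CPM among stressed males), whereas the lower row varies less.

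Stress of the dam was compared first in males. Of the 89 members 22 had a log2 fold change above 0 and 67 below 0 in stressed against control males, with a median of -0.07, beside a median of 0.01 over all 16102 genes tested, of which 51.7% lay above 0 and 48.3% below. No member passed an adjusted p of 0.05 (edgeR quasi-likelihood F test, Benjamini-Hochberg over all genes), where 0% of all genes passed. The smallest adjusted p of a member was 0.752, 0 members had an unadjusted p under 0.05 (6.38% of all genes), and DESeq2 and limma-voom also called 0. The median standard error of a member was 0.17, so single fold changes of this size lay within the error.

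Rpl13a, a large-subunit protein also known for translational silencing in inflammation, had 1927, 1836 and 2132 CPM among control males and 1771, 1659 and 1463 among stressed males. The groups did not overlap, with a log2 fold change of -0.27 ± 0.16 (SE, adjusted p = 0.760, edgeR). Rpl19 was the other member whose stressed males all lay under the controls (661, 568 and 563 against 552, 549 and 467 CPM, log2 fold change -0.19 ± 0.13), and 2.95% of all genes did so. Rpl27-ps3, a row of about 1 to 2 CPM, was the only member whose stressed males all lay above (1.03, 1.29 and 1.37 against 2.01, 1.37 and 2.10 CPM, 0.57 ± 0.30, against 2.72% of all genes). Its highest control and lowest stressed male differed by less than 0.05 CPM. Rps15, which takes part in export of the small subunit, had 656, 641 and 574 CPM in the control males and 535, 637 and 349 in the stressed males, a log2 fold change of -0.30 ± 0.19. The groups overlapped, and stressed male 3 was the lowest of the 6. Above 0 stood Rpl23a-ps3 at 0.40 ± 0.24, Rpl3 at 0.20 ± 0.17 and Rpl27 at 0.16.

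The sign of the male median rests on few libraries. Without stressed male 3 it was 0.04, with 62 members above 0, and without stressed male 2 it was -0.21, with 16 above 0. It was 0.04 without the 3 libraries rich in Yam1 reads, which leaves 1 stressed male, and 0.04 when each library was corrected for its trend with gene length. Without stressed male 2, 22 of 89 members had an unadjusted p under 0.05, beside 20.7% of all 16389 genes in that fit, and none passed the adjusted threshold.

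In females the members leaned the other way. Of the 89 members 85 had a log2 fold change above 0 in stressed against control females, with a median of 0.13, beside a median of -0.00 over all genes tested, of which 48.5% lay above 0 and 51.5% below. Again no member passed the threshold, beside 0% of all genes, and the smallest adjusted p was 1. An unadjusted p under 0.05 was found for 0 members, beside 0.298% of all genes, and DESeq2 and limma-voom called 0. These tests share 1 estimate of the spread with the males. The SD of the canonical median deviation was 0.048 and 0.082 in control and stressed females, against 0.13 and 0.23 in the male groups. With the 6 female libraries fitted alone, 1 member had an unadjusted p under 0.05 (edgeR), beside 1.29% of 15785 genes. In that fit 0 members passed the threshold. The median stayed above 0 in every alternative fit, from 0.07 with correction for gene length to 0.15 without stressed female 2.

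In 9 members all stressed females lay above all control females, against 3.07% of all genes: Rpl35a, Rps23, Rpl38, Rps16, Rpl30, Rps9, Rpl19, Rpl5 and Rps4x. In Rps9, Rpl30 and Rps4x the gap between the groups was under 1 CPM, at 0.141, 0.190 and 0.886 CPM. In no member did all stressed females lie below, against 2.49% of all genes. These 9 were singled out after their values were seen, and members that vary together are not independent. Rpl38, known for its part in the translation of Hox mRNAs, had 348, 305 and 253 CPM among control females and 391, 362 and 368 among stressed females, a log2 fold change of 0.31 ± 0.24. Rps23, a protein of the decoding centre, had 479, 470.3 and 444 against 522, 489 and 541 CPM (0.16 ± 0.12). Rpl34 had the smallest unadjusted p among the members, with 412, 341 and 376 CPM in controls and 487, 389 and 444 among stressed females. Its log2 fold change was 0.23 ± 0.14 with an unadjusted p = 0.127 (edgeR), and the groups overlapped. Rplp2 of the stalk had 0.20 ± 0.14 and Rps14 0.22 ± 0.17. Among those below 0 were Rpl10-ps3 at -0.12, Rps12-ps3 at -0.04 and Rpl35 at -0.02, each within its error.

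Whether the stress effect differed between the sexes was tested as an interaction in the same fit. The difference, males minus females, was below 0 in 82 of 89 members and above 0 in 7, beside 50.0% of all genes each way, with a median of -0.21 against -0.00 over all genes. None passed the threshold, beside 0% of all genes, and the smallest adjusted p was 0.999. DESeq2 gave 2 members an unadjusted p under 0.05 (2.45% of all genes) and edgeR 0 (2.15%), and no tool called one after adjustment. The smallest unadjusted p was that of Rps15, at -0.47 ± 0.28, and Rps27 had -0.46 ± 0.68. Rpl35a had -0.29 ± 0.18, Rpl19 -0.30 ± 0.19 and Rps23 -0.26 ± 0.17, and Rpl3 stood on the other side at 0.19 ± 0.25. The median was -0.04 with correction for gene length, -0.08 without stressed male 3, -0.07 without the 3 libraries rich in Yam1 reads and -0.29 without stressed male 2. Without that last library 20 members had an unadjusted p under 0.05, beside 13.0% of all genes in that fit, and none passed the threshold.

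Male and female pups were compared over both treatments. Of the 89 members 68 had a log2 fold change below 0 in males and 21 above, beside 50.6% and 49.4% of all genes, with a median of -0.13 against -0.00 over all genes. No member passed the threshold, beside 0.0497% of all genes (8 genes), and the smallest adjusted p was 0.411. At an unadjusted p under 0.05 stood 8 members, 7 lower and 1 higher in males, beside 3.70% of all genes lower and 8.28% higher. DESeq2 gave 13 members at that level, beside 13.9% of all genes, and limma-voom 14, beside 11.5%, and neither called one after adjustment. The 8 were Rpl9, Rpl37a, Rps21, Rpl31, Rps27, Rps27rt and Rpl9-ps6 below 0 and Rpl10-ps3 above 0. Only 5 of them are canonical. Rps27rt and Rpl9-ps6 are identical or nearly so to Rps27 and Rpl9 where aligned, so they may not count separately. Rpl10-ps3 is a row of 1.26 mean CPM.

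Rpl9, a large-subunit protein near the stalk, had 325, 571, 431, 343, 603 and 268 CPM in control and then stressed males, and 594, 464, 596, 711, 572 and 592 in control and then stressed females. Its log2 fold change was -0.47 ± 0.20 (adjusted p = 0.411, edgeR), and the sexes overlapped because both males of dam number 2 lay among the females. The same held for Rps27 at -0.76 ± 0.34, Rpl37a at -0.54 ± 0.24 and Rps21 at -0.42 ± 0.19. Above 0 lay Rpl3 at 0.21 ± 0.12, Rpsa at 0.18 ± 0.10 and Rpl10a at 0.17 ± 0.11. Of the 4 X-linked members (Rpl10, Rpl36a, Rpl39 and Rps4x) none stood among the 8.

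The calls between the sexes changed when 1 library was left out. Without stressed male 2, 1384 of 16389 genes passed the threshold, in place of 8 of 16102, among them 15 of the 89 members. These were Rps29, Rps27, Rps21, Rps27rt, Rpl37a, Rps28, Rpl9, Rpl9-ps6, Rpl39, Rpl37, Rpl38, Rpl41, Rpl28 and Rpl31, all below 0 in males, and Rpl10-ps3 above 0. The copies Rps27rt, Rpl9-ps6 and Rpl10-ps3 are among them, with the limits given above. Rps29 then had a log2 fold change of -0.80 ± 0.14 (adjusted p = 0.0346, edgeR) and Rps27 -1.17 ± 0.25 (adjusted p = 0.0354). This fit keeps stressed males 1 and 3, both among the 3 libraries rich in Yam1 reads. No other left-out library brought a member past the threshold. With correction for gene length the median over members was 0.03, and without the 3 male libraries rich in Yam1 reads it was 0.00. In the fit without those 3, which leaves 1 stressed male, 45 members lay above 0 and 44 below.

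The dam was the animal that was stressed, so counts of littermates were also summed and 3 stressed dams compared with 3 control dams. The log2 fold change was above 0 in 58 and below 0 in 31 members, beside 51.3% of 16749 genes above and 48.7% below 0, with a median of 0.03 against 0.00. None passed the threshold, beside 0% of all genes. The smallest adjusted p was 1.00, 0 members had an unadjusted p under 0.05 (1.36% of all genes), and DESeq2 and limma-voom called 0. In 3 members (Rps26, Rpl30 and Rps16) all stressed dams lay above all control dams, against 3.02% of all genes, and in none did they lie below, against 2.65%. With correction for gene length 82 members lay above 0 and 7 below, with a median of 0.068, and without stressed dam 3 these were 78 and 11, with a median of 0.056. Rps26, a small-subunit protein at the mRNA exit channel, had the smallest unadjusted p (0.134, edgeR) with a log2 fold change of 0.16 ± 0.10. Its pups had 372, 549 and 486 CPM among control males, 532, 602 and 443 among stressed males, 606, 529 and 542 among control females and 696, 572 and 637 among stressed females, so that the pups overlapped in both sexes. Rps27 had 0.21 ± 0.19, Rpl27 0.14 ± 0.10 and Rpl39 0.17 ± 0.13. Among those below 0 were Rps12-ps3 at -0.13 ± 0.14 and Rpl35 at -0.10.

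**Figure D5:**
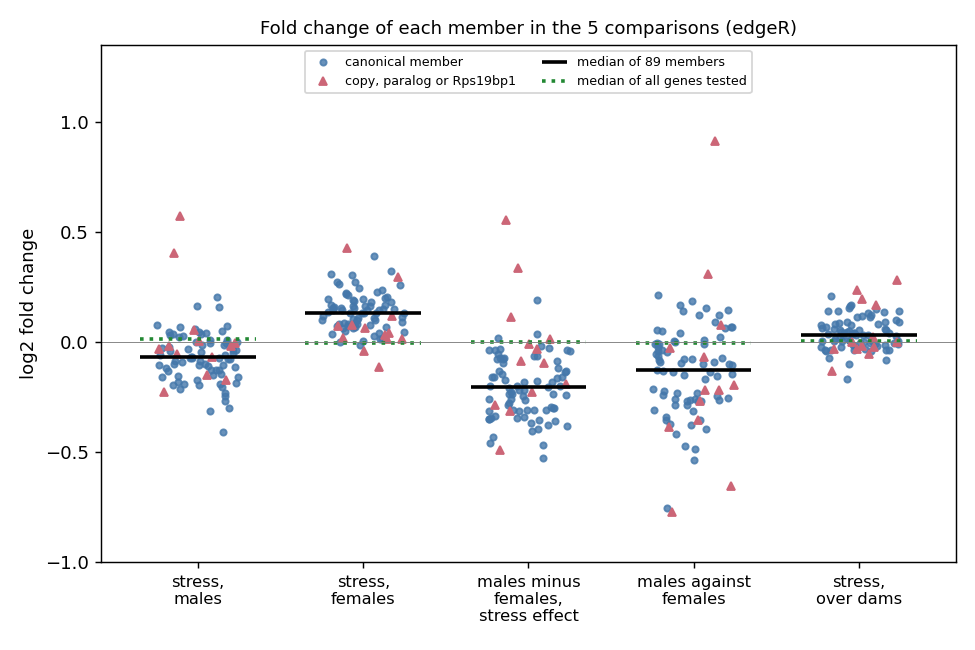
Log2 fold change of each of the 89 members in the 5 comparisons (edgeR; circles canonical, triangles the other 13), with the median of the members as a black line and that of all genes tested as a dotted line. The medians of the members are -0.07, 0.13, -0.21, -0.13 and 0.03 from left to right, and no point passed an adjusted p of 0.05.

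By role the values were as follows. RPL5 and RPL11 form with 5S ribosomal RNA the particle that restrains MDM2 when ribosome assembly is disturbed. Rpl5 had log2 fold changes of 0.01 ± 0.14 in males and 0.07 ± 0.14 in females, and Rpl11 -0.11 ± 0.14 and 0.07 ± 0.14. In the stalk, which recruits elongation factors, Rplp0 had -0.02 ± 0.19 in males and 0.04 ± 0.19 in females, Rplp1 -0.15 ± 0.22 and 0.20 ± 0.22, and Rplp2 0.05 ± 0.14 and 0.20 ± 0.14. Rps6, the substrate of the S6 kinases downstream of mTOR, had 284 CPM in stressed male 3 and 349 in control male 1, against 382 to 556 in the other 10 libraries. Its log2 fold changes were -0.25 ± 0.22 in males and 0.06 ± 0.22 in females. Rps19 and Rps26, both mutated in Diamond-Blackfan anaemia, had -0.13 ± 0.20 and 0.16 ± 0.18 in males, and 0.22 ± 0.20 and 0.18 ± 0.17 in females. Rps27a, whose protein is made as a fusion with ubiquitin, had -0.10 ± 0.14 and 0.15 ± 0.14. None of these stood apart from 0 by more than 2 standard errors. By subunit the medians were close, at -0.07 and -0.08 in males and 0.13 and 0.15 in females for the large and the small subunit.

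The paralogs had means between 37.6 FPKM in Rpl7l1 and 185 in Rpl22l1, and by FPKM Rpl22l1 lay above its parent Rpl22 at 117. For FPKM Rpl22 was given 2051 bases and Rpl22l1 489. By mean CPM the order was reversed, with Rpl22 at 240 and Rpl22l1 at 90.5. Rpl36al, Rps4l, Rpl7l1 and Rps27l lay below their parents by FPKM. Over the 5 paralogs the ratio between the highest and lowest library ran from 1.22 in Rpl7l1 to 2.36 in Rpl36al. Rps27l, a p53-responsive relative of Rps27, had 48.3 to 112 CPM over the 12 libraries and log2 fold changes of -0.03 ± 0.29 in males and 0.06 ± 0.29 in females. Rpl22l1 had 62.8 to 116 CPM with 0.06 ± 0.21 and 0.04 ± 0.21. Rpl7l1, with 84.4 to 103 CPM, was the steadiest of them and had 0.00 ± 0.11 and 0.01 ± 0.11. Rpl36al had -0.15 ± 0.25 and 0.08 ± 0.25, Rps4l -0.06 ± 0.16 and 0.03 ± 0.15, and the binding protein gene Rps19bp1 -0.17 ± 0.19 and 0.12 ± 0.18. Local alignment of the GENCODE transcripts gave 77.4% identity of Rps27l with Rps27, 74.7% of Rpl22l1 with Rpl22, 68.4% of Rpl7l1 with Rpl7, 80.1% of Rps4l with Rps4x and 87.7% of Rpl36al with Rpl36a.

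For the copies the counts cannot be assigned to 1 gene with certainty. The aligned 341 bases of Rps27 and Rps27rt were identical, and the start sequences printed above run into that stretch. Rps27rt held 3.00% as many CPM as Rps27, and its log2 CPM followed Rps27 with r = 0.99 over the 12 libraries. It had 8.20, 18.8 and 10.1 CPM among control males, 7.35, 22.7 and 5.34 among stressed males, 23.1, 12.3 and 18.3 among control females and 32.5, 18.2 and 21.3 among stressed females, in nearly the order of Rps27. The transcripts of Rpl10-ps3, Rpl27-ps3 and Rps12-ps3 were identical to Rpl10, Rpl27 and Rps12 over 740, 411 and 450 bases. Rpl9-ps6 and Rpl23a-ps3 differed from their parents at 1 position each and Rps26-ps1 at 2. Rpl10-ps3 did not follow the canonical genes: it had 1.94, 1.24 and 1.82 CPM among control males, 1.91, 0.687 and 2.41 among stressed males, and 0.656 to 1.27 in females. A further 231 rows annotated as ribosomal protein pseudogenes, outside the members, summed to 239 to 320 CPM a library.

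The rest of the translation machinery gives the setting. Ribosome components outside the name rule include Fau and Rack1, which the table names Gnb2l1. Fau had 269.8 to 404 CPM and log2 fold changes of -0.22 ± 0.15 in males and 0.07 ± 0.15 in females, and Gnb2l1 had 627 to 897 CPM with 0.05 ± 0.16 and 0.07 ± 0.16. No gene of the lists in this paragraph passed the threshold in any of the 5 comparisons. Of 29 initiation factors 18 were above 0 in males and 9 in females, with medians of 0.05 and -0.04. Of 11 elongation and termination factors 5 and 6 were above 0, and Eef1a1, the carrier of aminoacyl-tRNA, had 0.09 ± 0.20 and 0.03 ± 0.20. Of 51 ribosome biogenesis genes 36 were above 0 in males and 21 in females, with medians of 0.09 and -0.04. Among them Npm1, a nucleolar chaperone, had 0.10 ± 0.13 and 0.07 ± 0.13 and Ncl 0.28 ± 0.23 and -0.08 ± 0.23. Over the libraries the biogenesis list lay lowest in control male 1, at -0.31 (median log2 deviation). Control males 2 and 3 stood at 0.04 and 0.02, and stressed males 1, 2 and 3 at 0.03, -0.03 and 0.01. How far control male 1 alone accounts for the lean of this list in males was not tested.

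In the list of 16 mTOR pathway genes and Myc, 10 were above 0 in males and 5 in females. Mtor itself had 0.68 ± 0.22 in males (adjusted p = 0.752, edgeR) and -0.13 ± 0.22 in females, and its log2 fold change in males had the opposite sign to the median of the members. Larp1, which binds TOP mRNAs, had 0.44 ± 0.26 and -0.15 ± 0.26, and Myc -0.18 ± 0.29 and -0.16 ± 0.28. Of 9 p53 targets 6 were above 0 in males and 3 in females, with medians of 0.10 and -0.02. The 7 measured snoRNA host genes, several of which are TOP genes, had medians of -0.26 in males and 0.20 in females. Their median deviation was -0.99, -0.81 and -0.74 in stressed male 1, stressed male 3 and control male 1, the libraries rich in Yam1 reads, and 0.97 in stressed female 1. Ribosomal protein chaperones, 6 genes tested, had medians of -0.05 and 0.04.

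Mitochondrial ribosomal proteins, which are encoded in the nucleus but serve another ribosome, are the nearest family for comparison. Of 76 tested, 8 were above 0 in males and 46 in females, with medians of -0.15 and 0.01, and the median of the difference between sexes was -0.18. Between males and females their median was -0.15. The members thus had the higher median of both families in females (0.13 against 0.01), which was not tested. The 12 mitochondrially encoded genes were all below 0 in males with a median of -0.95, all 12 at an unadjusted p under 0.05 and none past the threshold.

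In the authors' deposited table of comparisons, 17 members had a fold change above 0 and 72 below 0 for stress in males (median -0.07 on the log2 scale). For females the authors' deposited table gave 84 above and 5 below, with a median of 0.10. For stress over both sexes the authors' deposited table gave 54 above and 35 below with a median of 0.02, and in none of the 3 did a member have an adjusted p under 0.05.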

How the data were processed

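Total RNA of 12 ileum samples (4 groups of 3) was sequenced. The deposited table holds raw read counts per gene, a second deposited table FPKM for the same genes, and the authors' table of comparisons log2 fold changes, each with its raw and adjusted p-value, per the file headers. Builds GRCm38 and mm10 and the tools HTSeq 0.6.1, STAR 2.5, TopHat, edgeR 3.16.5 and DESeq2 appear in the submitters' processing notes, without their roles. Strand and the treatment of reads that match several places are not given in any source used here. Library totals were 16423523 to 22975526 counts.

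Counts of all genes were fitted in R 4.3.3 with edgeR 4.0.16 (TMM, filterByExpr, quasi-likelihood F test, Benjamini-Hochberg over all genes, threshold 0.05) in 1 model over all 4 groups (8 residual degrees of freedom), and separately on counts summed over littermates (4 degrees of freedom). CPM are TMM-scaled, deviations use log2 CPM with a prior count of 2, and standard errors come from the F statistics. Alternatives used DESeq2 1.42.0, limma 3.58.1 (voom), other scaling and filters, a loess correction for gene length (span 0.5), left-out libraries and the dam as a block. Littermates pair by the labels; their deviations across genes correlated between -0.362 and 0.545. Pups came from separate animals, but sexes share dams. The fits were tested on simulated data. Transcripts were aligned with Biopython 1.88.

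Members and gene lists were chosen with earlier results of these data known. Named were the members that are not canonical, those with fixed roles, in each comparison the 4 of smallest unadjusted p in each direction where none passed, the 5 highest and lowest by FPKM, and the most and least variable. Members whose groups did not overlap, the 15 without stressed male 2 and the split by transcript length were picked after the values were seen. Values of some named genes are not reported here.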

Additional observations from a re-analysis of the deposited data

Results flagged for a closer look

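Rpl19, a protein of the large subunit that reaches towards the small one, was set apart because its libraries moved in opposite directions in the sexes. All stressed males lay under all control males (552, 549 and 467 against 661, 568 and 563 CPM), while all stressed females lay above all control females (556, 539.7 and 587 against 538, 537 and 487 CPM). The difference between the log2 fold changes, males minus females, was -0.30 ± 0.19 (SE). It was tested as an interaction and did not pass (adjusted p = 0.999, unadjusted p = 0.136, edgeR quasi-likelihood F test). The lowest stressed female exceeded the highest control female by little, and 1 gene was singled out from 89 after the values were seen.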

How the results depend on the processing

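The count of members past the threshold was 0 in all 5 comparisons under median-ratio size factors, scaling without the members, DESeq2, limma-voom, other filters, correction for gene length and the replicate block. Leaving out libraries gave 0 to 15 of the 89 members between the sexes and 0 elsewhere. The 15 came without stressed male replicate 2, where 1384 of 16389 genes passed. With correction for gene length the median was -0.040 for the difference between the stress effects and 0.033 between the sexes. With each library left out in turn, the medians ran from -0.209 to 0.043 in males, 0.092 to 0.152 in females, -0.292 to -0.084 for the difference, -0.169 to -0.080 between the sexes and 0.0097 to 0.056 over dams, where correction for gene length gave 0.068. With the dam, which littermates share, as a block the medians were -0.217 for the difference and -0.138 between the sexes. The dam numbers pair no stressed dam with a control dam by the labels, and with the number as a block the medians were -0.075 in males, 0.130 in females and 0.032 over dams. The block changed no call of a member, while over all genes 6 in place of 8 passed between the sexes. All of these are log2 values whose cause was not tested.

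Several single fold changes changed sign, among them the larger ones of Rps15, Rpl3 and Rpl27 in males. In males without the 3 libraries rich in Yam1 reads, Rpl3 had -0.130, Rpl27 -0.098 and Rps15 0.068. In females Rpl35 had 0.034 without both pups of control dam 3. With each library left out, Rpl35 ran from -0.135 to 0.108, Rps12-ps3 from -0.088 to 0.0021 and Rpl10-ps3 from -0.304 to 0.173. For the difference Rpl10-ps3 had -0.100 with limma-voom, -0.0091 with the block, -1.02 without the libraries rich in Yam1 reads and -0.238 to 0.491 with each library left out, and Rpl3 had -0.144 without the libraries rich in Yam1 reads. For these the cause was not tested. The fit without those libraries holds 1 stressed male, assumed to vary like the other groups. Minimum means of 0.5 and 5 CPM gave 92 and 84 members, and TMM-scaled CPM gave 89. Rpl10-ps3 and Rpl27-ps3, at about 1 CPM, are limited by depth.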
